A study of Mus musculus with 8 samples.

Results

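The sarcomeric myosin heavy chains of mouse soleus (SOL) were examined as a family of 8 genes, Myh7, Myh2, Myh1, Myh4, Myh3, Myh8, Myh6 and Myh7b, taken by name from the 24054 genes of the deposited table. All 8 genes had 1 entry each and passed the filter on low values. RNA came from whole SOL of male C57BL/6 mice that the labels place on a high-fat diet, with 4 MI4KO mice and 4 flox mice and 1 stranded poly(A) library of single 50-base reads per mouse. Both groups carried floxed Irf4 alleles, and MI4KO mice (Irf4 flox/flox;Myl1-Cre+) carried in addition a Cre recombinase knocked into Myl1, a gene for a fast muscle light chain, so that Cre acts in skeletal muscle fibers while the floxed gene stays intact in the other cells of the muscle. The flox mice had no Cre allele, so no group here shows the Cre allele without the deletion. The labels give no age and no batch for these mice, which are numbered 1 to 4 within each group in ascending order of their label numbers. The deposited unit is TMM-normalized CPM, that is, reads per gene relative to the size of the library, with a scaling factor per mouse that centers the bulk of genes, and the reads behind each value were recovered as whole numbers.

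A sarcomeric myosin heavy chain is the motor protein of the thick filament, and the isoform a fiber makes largely sets how fast that fiber shortens. Adult limb fibers use Myh7 (type I, slow, also the beta chain of the heart), Myh2 (type IIA), Myh1 (type IIX) or Myh4 (type IIB, the fastest), while Myh3 (embryonic) and Myh8 (perinatal) belong to developing and regenerating muscle. Myh6 is the alpha chain of the heart, and Myh7b is a slow-tonic chain whose gene carries a microRNA. Mouse SOL is a postural muscle built mainly of type I and type IIA fibers. In bulk muscle RNA, fewer fibers of a type and less RNA per fiber cannot be told apart.

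Libraries held 13916450 to 16137925 reads on genes in the flox group and 13417512 to 16384565 in the MI4KO group, and 3 reads, taken as the smallest amount detected, correspond to values of 0.181 to 0.225. Irf4, the deleted gene, was at 0.686, 1.46, 1.58 and 1.68 in flox mice 1 to 4 and at 0.725, 0.840, 0.266 and 1.03 in MI4KO mice 1 to 4, on 4 to 23 reads, so that flox mouse 1 lay inside the MI4KO range. For Irf4 an exact two-sided permutation test had p = 0.114, where 4 mice against 4 can reach 0.0286 at the least, and the limma log2 fold change on log2(value + 1) was -0.45 (SE 0.20, 95% confidence interval -0.88 to -0.02, unadjusted p = 0.0402, Benjamini-Hochberg adjusted p = 1.0). Flox mouse 1 also held transcripts of 10 liver markers with a summed value of 137, against 1 or less in the other mice, and MI4KO mouse 3 had the highest Trim63 (327, against 124 to 173 elsewhere). Their part in the results was not tested, and results were repeated without each mouse.

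The genes differ little in sequence, which matters for reads of 50 bases. In the GENCODE M21 annotation of GRCm38, 5 of the 8 lie in 1 cluster on the plus strand of chromosome 11, in the order Myh3 (chr11:67078300-67102291), Myh2 (chr11:67171027-67197517), Myh1 (chr11:67200052-67224575), Myh4 (chr11:67238029-67260446) and Myh8 (chr11:67277124-67308634). Myh6 (chr14:54941921-54966927) and Myh7 (chr14:54970684-54994626) are neighbors on the minus strand of chromosome 14, and Myh7b (chr2:155611212-155634307) stands alone on chromosome 2. The coding sequences of Myh7 and Myh6 were identical at 91.8% of aligned bases, with a longest identical run of 245 bases, and those of Myh2 and Myh1 at 91.1%, with a run of 268 bases. Myh7b was the most distant member, at 69.8% to 73.1% identity to the others. A stretch of coding exon from each of Myh7 and Myh6 shows what a read can and cannot tell. The first pair (exon 5 of Myh7, chr14:54992322-54992371, and exon 4 of Myh6, chr14:54963978-54964027, minus strand) has no difference over a read length. The second pair (exon 27 of Myh7, chr14:54980353-54980402, and exon 25 of Myh6, chr14:54952278-54952327, minus strand) is the pair of matching windows with the most differences, and capitals mark the 21 bases at which the genes differ.
Myh7, identical window: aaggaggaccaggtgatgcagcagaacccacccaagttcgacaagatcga
Myh6, identical window: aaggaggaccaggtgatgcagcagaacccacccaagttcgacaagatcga
Myh7, most different window: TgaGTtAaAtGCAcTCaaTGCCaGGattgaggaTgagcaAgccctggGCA
Myh6, most different window: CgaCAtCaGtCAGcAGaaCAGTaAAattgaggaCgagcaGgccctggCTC

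For the fast isoforms the same comparison of Myh1 and Myh4, the type IIX and type IIB genes, is shown for the pair of windows with the most differences (Myh1 exon 22, chr11:67211475-67211524, and Myh4 exon 21, chr11:67250898-67250947, plus strand), with the 16 differing bases in capitals.
Myh1, most different window: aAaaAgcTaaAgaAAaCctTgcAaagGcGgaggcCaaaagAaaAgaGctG
Myh4, most different window: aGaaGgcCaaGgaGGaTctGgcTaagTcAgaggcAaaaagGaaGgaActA
Over the whole transcripts, 22.2% of the 50-base windows of Myh7 (1373 of 6181) also occurred in another member, and 22.6% of those of Myh6, 26.7% of Myh2, 26.1% of Myh1, 19.9% of Myh8, 18.6% of Myh4, 3.66% of Myh3 and 0% of Myh7b. The authors divided such reads between genes by RSEM, which estimates each gene's portion from the reads that do distinguish them. Levels of close pairs are therefore estimates, and most windows of every member were its own within the family. Myh13, a further sarcomeric gene of the chromosome 11 cluster that is used mainly in eye muscle and is not among the 8, shared 2.09% to 4.79% of the windows of the cluster genes and was itself at 5.20 to 9.72.

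**Figure D1:**
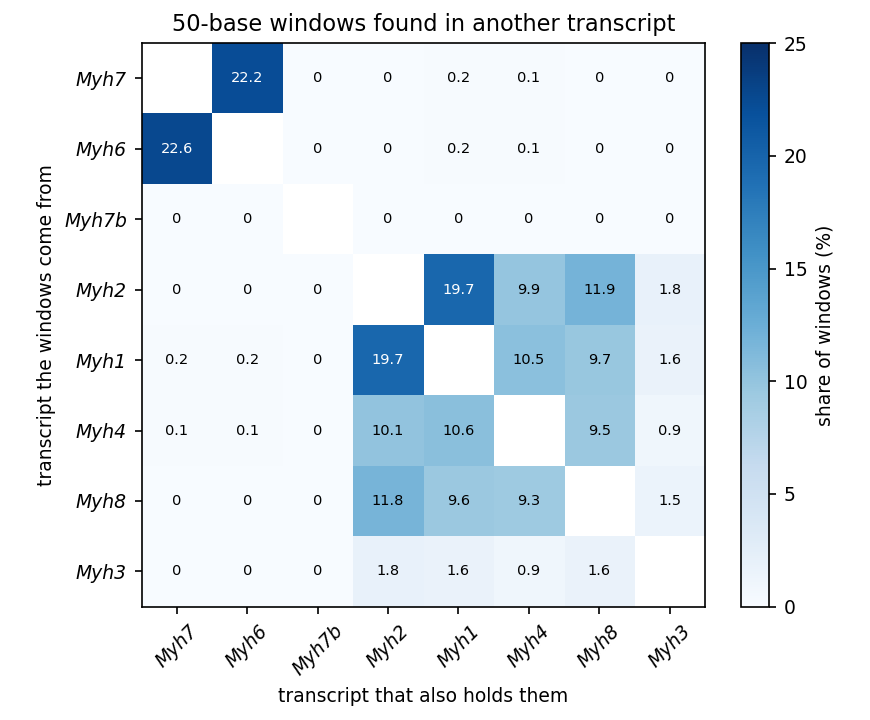
Share (%) of the 50-base windows of each member's longest annotated transcript (vertical axis) that occur unchanged in the transcript of another member (horizontal axis). Sharing is high between Myh7 and Myh6 (22.2% and 22.6%) and between Myh2 and Myh1 (19.7% each way), and Myh7b shares none.

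Together the 8 genes took 3.19% to 3.64% of all signal in flox mice and 3.03% to 3.77% in MI4KO mice, on 406050 to 602456 reads per mouse. Levels of different genes were compared per kilobase of transcript. On that scale the 4 adult isoforms Myh7, Myh2, Myh1 and Myh4 made up 96.0% to 99.7% of the family's sum in every mouse. Myh2 had the largest share, with 45.7% ± 3.18 in the flox group and 44.6% ± 2.98 in the MI4KO group (SD, n = 4 each), followed by Myh7 at 37.1% ± 1.67 and 35.6% ± 5.48 and by Myh1 at 12.5% ± 3.25 and 15.5% ± 5.96. Myh4 followed at 3.49% ± 4.07 and 2.53% ± 2.63, with an SD larger than the mean in both groups. No share differed between the groups by the exact two-sided permutation test, with p = 0.629 for Myh2, 0.543 for Myh7, 0.543 for Myh1 and 0.829 for Myh4, and MI4KO and flox mice overlapped in all 8 shares.

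By median level per kilobase over the 8 mice the order was Myh2 (2343), Myh7 (1917), Myh1 (786), Myh4 (92.2), Myh7b (7.92), Myh3 (6.00), Myh6 (2.61) and Myh8 (0.586). Myh2 exceeded Myh7 in 8 of 8 mice, although the ranges over mice overlapped (2039 to 2813 against 1778 to 2340). The ratio of Myh2 to Myh7 per kilobase was 1.18, 1.30, 1.18 and 1.26 in flox mice 1 to 4 and 1.05, 1.2, 1.32 and 1.53 in MI4KO mice 1 to 4. Both of the outermost ratios thus belonged to MI4KO mice. Myh7 and Myh1 were separate in range, as were Myh6 and Myh8. Myh4, Myh7b, Myh3 and Myh6 had overlapping ranges, and Myh4 exceeded Myh7b in 6 of 8 mice and Myh3 exceeded Myh6 in 5 of 8.

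**Figure D2:**
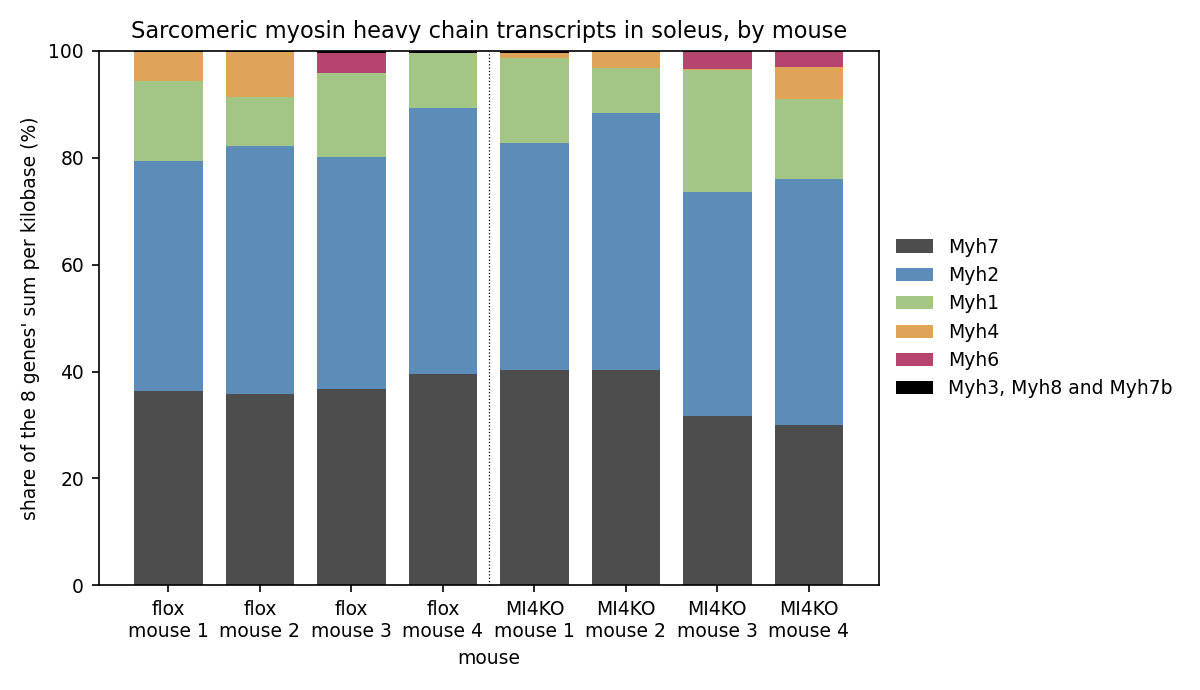
Share of each gene in the sum of the 8 genes per kilobase of transcript (%, stacked to 100) for flox mice 1 to 4 and MI4KO mice 1 to 4. Myh2 and Myh7 fill most of every bar, Myh4 is visible in flox mice 1 and 2 and MI4KO mice 1, 2 and 4, and Myh6 in flox mouse 3 and MI4KO mice 3 and 4.

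Myh7, the slow chain, had deposited values of 12363, 11179, 14577 and 13900 in flox mice 1 to 4 and of 12048, 11842, 11079 and 11105 in MI4KO mice 1 to 4. The MI4KO values were close together and lay within the lower part of the flox range, apart from MI4KO mouse 3 and mouse 4, which were below the lowest flox mouse by less than the SD of either group. The means were 13005 ± 1530 and 11518 ± 499.9 (SD, n = 4 each), with p = 0.114 by the exact two-sided permutation test. On the log2(value + 1) scale the limma fold change of Myh7 was -0.17 (SE 0.12, 95% confidence interval -0.42 to 0.09, Benjamini-Hochberg adjusted p = 1.0).

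Myh2, the type IIA chain, was at 14238, 14223, 16807 and 17110 in flox mice 1 to 4 and at 12401, 13852, 14273 and 16625 in MI4KO mice 1 to 4. The highest MI4KO value lay inside the flox range and the lowest flox value inside the MI4KO range. Means were 15595 ± 1580 and 14288 ± 1752 (SD, n = 4 each), with p = 0.229 by the exact two-sided permutation test, and the limma log2 fold change of Myh2 was -0.13 (SE 0.13, interval -0.41 to 0.15).

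Myh1, the type IIX chain, varied more, with 4964, 2824, 6042 and 3511 in flox mice 1 to 4 and 4600, 2406, 7824 and 5389 in MI4KO mice 1 to 4. The highest and the lowest of the 8 values were both in MI4KO mice, 3 and 2, 3.25-fold apart. The group means were 4335 ± 1446 and 5055 ± 2236 (SD, n = 4 each; exact two-sided permutation p = 0.600), and the limma log2 fold change was 0.16 (SE 0.31, interval -0.51 to 0.84). The sign of this fold change rested on single mice, since it was -0.09 when MI4KO mouse 3 was left out and -0.02 when flox mouse 2 was.

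Myh4, the type IIB chain, was the most uneven of the adult isoforms. Flox mice 1 to 4 had Myh4 values of 1807, 2496, 34.5 and 35.4, and MI4KO mice 1 to 4 had 278, 831, 55.8 and 2174. Low values under 100 and values above 1000 occurred in both groups, and the span of 72.3-fold rested on 460 to 35980 reads, so counting error was small against it. Group means were 1093 ± 1254 and 835 ± 951 (SD, n = 4 each; exact two-sided permutation p = 0.829). The limma log2 fold change had the opposite sign to the difference of means, at 0.57 (SE 1.42, interval -2.50 to 3.65), and it was -0.37 with edgeR and -0.38 with DESeq2 on the recovered reads. It was also negative without flox mouse 3 (-0.41), flox mouse 4 (-0.40) or MI4KO mouse 4 (-0.23), so these data set no direction for Myh4.

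Among the 1390 genes that averaged 100 or more, whose median ratio of highest to lowest mouse was 1.26, Myh6 had the largest such ratio (107), Myh4 the second largest (72.3) and Actn3, the alpha-actinin of fast fibers, the third (14.1). Myh1 ranked 12, while Myh2 ranked 260 (1.38-fold) and Myh7 ranked 415 (1.32-fold). Actn3 was at 249, 334, 32.9 and 23.8 in flox mice 1 to 4 and at 61.1, 154, 50.9 and 273 in MI4KO mice 1 to 4. Myh4 and Actn3 followed nearly the same order over the mice, with Pearson r = 0.979 and Spearman rho = 0.98 on the log2(value + 1) scale over 8 mice. Actn3 was the gene most like Myh4 of 11857 compared, followed by Spp1 (r = 0.930) and Abi2 (r = 0.919), and 6 genes reached 0.9. These are descriptions over 8 points that also share library scaling, and no test was made of them.

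**Figure D3:**
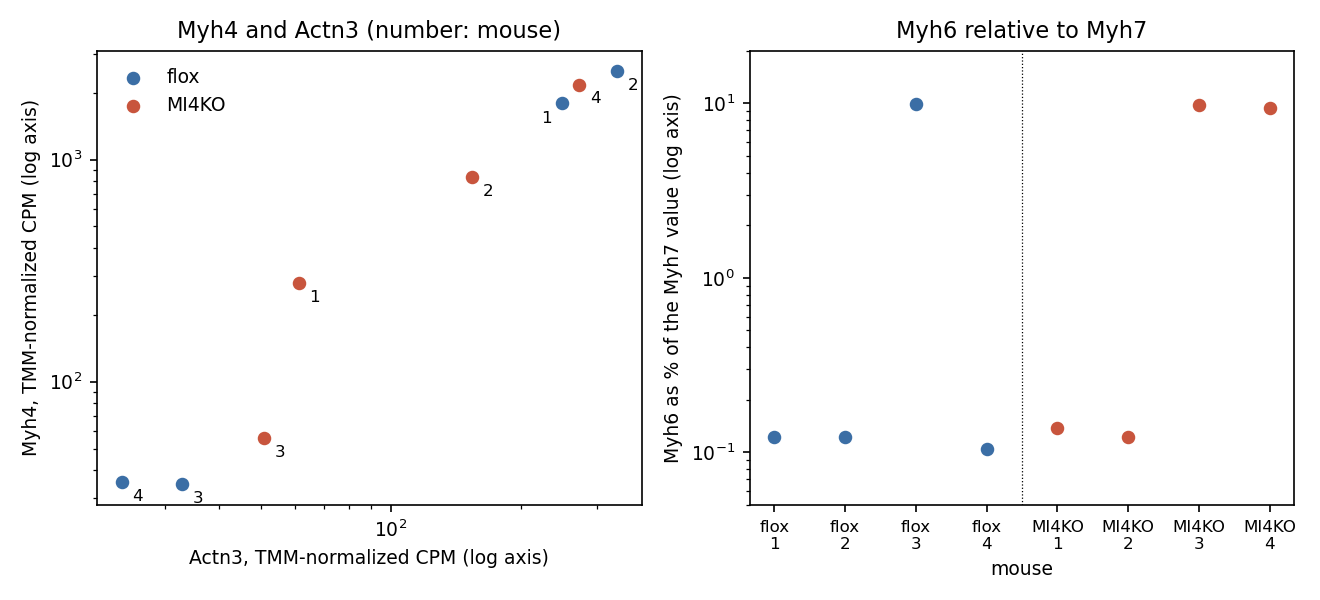
Left, Myh4 against Actn3 in each mouse (TMM-normalized CPM, both axes logarithmic, points numbered by mouse), which rise together from flox mice 3 and 4 (Myh4 at 34.5 and 35.4) to flox mouse 2 (2496). Right, the Myh6 value as a percentage of the Myh7 value in each mouse (logarithmic axis), which is 9.41% to 9.96% in flox mouse 3 and MI4KO mice 3 and 4 and 0.104% to 0.138% in the other mice.

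Myh6, the alpha chain of the heart, showed 2 levels with nothing between them. Values were 15.2, 13.6, 1451 and 14.5 in flox mice 1 to 4 and 16.7, 14.5, 1089 and 1045 in MI4KO mice 1 to 4, on 196 to 19344 reads. Thus 3 mice (1 flox and 2 MI4KO) were above 1000 and 5 were under 20. As a share of the family per kilobase, Myh6 reached 3.73% in flox mouse 3. Relative to the Myh7 value in the same mouse, Myh6 stood at 0.123%, 0.122%, 9.96% and 0.104% in flox mice 1 to 4 and at 0.138%, 0.123%, 9.82% and 9.41% in MI4KO mice 1 to 4. The 3 high ratios thus lay between 9.41% and 9.96%, in mice whose Myh7 values ran from 11079 to 14577. The group means of Myh6 were 374 ± 718 and 541 ± 607 (SD, n = 4 each; exact two-sided permutation p = 0.771), and its limma log2 fold change was 1.47 (SE 1.66, interval -2.13 to 5.07). That estimate ranged from 0.46 without MI4KO mouse 3 to 3.11 without flox mouse 3, with an adjusted p near 1.0 in each case.

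The genes that mark heart muscle were at or near 0 in most cases. Of 12 heart markers, Nppb (a natriuretic peptide), Myl7 (the atrial light chain) and Nkx2-5 (a cardiac transcription factor) were listed at 0 in all 8 mice, and 7 of 12 stayed under 1 in every mouse. Nppa did not exceed 0.146 and Tnni3, the cardiac troponin I, did not exceed 0.499. The summed value of the 12 was 69.6 to 94.1 in flox mice and 53.2 to 101 in MI4KO mice, most of it from Sln (36.1 to 71.4), Myl4 (6.38 to 16.7) and Tnnt2 (7.82 to 11.7), which skeletal muscle also uses. In flox mouse 3 and MI4KO mice 3 and 4, the mice with Myh6 above 1000, Nppa was at 0.0750, 0 and 0.0604 and Tnni3 at 0.150, 0.399 and 0.363, while the highest Tnni3 value was in flox mouse 1. Tbx5, a cardiac transcription factor, was at 0.0750, 0.133 and 0.0604 in these mice and listed at 0 in the other 5, on 2 reads at most, which is under the floor of 3 reads. Intrafusal fibers of the muscle spindle, which are known to contain Myh6, are marked by Egr3, Etv4, Etv5 and Ntf3, and the sum of these markers was 21.6 to 25 in flox mice and 16.7 to 24.4 in MI4KO mice. In flox mouse 3 and MI4KO mice 3 and 4, Egr3 was at 1.28, 0.0665 and 0.725. The Egr3 value of MI4KO mouse 3, the lowest of the 8, was 1 read, under the floor of 3 reads. In the same 3 mice Etv4 was at 3.83, 1.86 and 2.6 and Etv5 at 16.1, 13.1 and 17. Ntf3 was at 1.66 to 2.55 in flox mice and 1.38 to 1.66 in MI4KO mice (limma log2 fold change -0.25, unadjusted p = 0.0955). It was the marker whose groups did not overlap before rounding, as was the case for 2.07% of all genes. Ntf3 rested on only 19 to 35 reads per mouse. Since the mice fell into separate clusters for Myh6, no correlation is given for it, and the genes that followed it most closely in shape, Rrp1b, Ten1 and Cpsf4, differed by only 1.24- to 1.41-fold between mice.

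The developmental chains were low. Myh3 was at 36.1, 31.7, 50.9 and 52.2 in flox mice 1 to 4 and at 49.8, 36.3, 9.31 and 23.4 in MI4KO mice 1 to 4. MI4KO mice 3 and 4 were below every flox mouse, while MI4KO mice 1 and 2 lay inside the flox range. Means of Myh3 were 42.7 ± 10.4 and 29.7 ± 17.4 (SD, n = 4 each; exact two-sided permutation p = 0.257), with a limma log2 fold change of -0.70 (SE 0.37, interval -1.51 to 0.11, unadjusted p = 0.0834). Without MI4KO mouse 3 it was -0.25 and without MI4KO mouse 1 it was -1.02. Fhl1 (r = 0.982), Pcp4l1 (r = 0.980) and Cdkl1 (r = 0.978) were the genes most like Myh3 over the 8 mice, Fhl1 being a LIM-domain protein of muscle at 3103 to 5763. Of 11857 genes compared, 82 had an r of at least 0.9 with Myh3. Among them were Csrp3, another LIM protein of slow muscle (0.93), the denervation and regeneration gene Ncam1 (0.92) and Sln (0.91). Each was likewise lowest in MI4KO mouse 3, with Csrp3 at 231 there against 479.7 to 854 in the other mice. Chrna1, of the same list as Ncam1, had r = -0.72 with Myh3. Myh8 was at 2.37, 3.75, 4.50 and 3.35 in flox mice 1 to 4 and at 9.07, 2.0, 3.46 and 4.17 in MI4KO mice 1 to 4, on only 31 to 125 reads, and MI4KO mouse 1 alone stood above the rest. The limma log2 fold change of Myh8 was 0.22 (SE 0.29, interval -0.42 to 0.85), and -0.11 without MI4KO mouse 1. Of the denervation and regeneration genes, which include Myog, Myod1 and the acetylcholine receptor gene Chrna1, 0 of 9 tested had an unadjusted p under 0.05 in either direction, against 3.36% of all genes tested, so the count is near that background.

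Myh7b was at 46.8, 50.2, 65.4 and 61.9 in flox mice 1 to 4 and at 52.4, 47.5, 46.4 and 43.7 in MI4KO mice 1 to 4. MI4KO mice 3 and 4 were the lowest of the 8, and flox mice 3 and 4 the highest. The means were 56.1 ± 8.99 and 47.5 ± 3.66 (SD, n = 4 each; exact two-sided permutation p = 0.171). Its limma log2 fold change was -0.22 (SE 0.11, interval -0.46 to 0.01, unadjusted p = 0.0582, Benjamini-Hochberg adjusted p = 1.0), less than 1.5-fold at either end of the interval.

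Myh6, Myh7 and Myh7b each carry a microRNA in an intron, and these are printed because they link the 3 genes by sequence. Capitals mark the seed, bases 2 to 8, which pairs with target messages. The sequences are from RefSeq on GRCm38.p6, with miR-208a-3p at chr14:54949072-54949093 (minus strand) in Myh6, miR-208b-3p at chr14:54975710-54975731 (minus strand) in Myh7 and miR-499-5p at chr2:155622893-155622913 (plus strand) in Myh7b.
mmu-miR-208a-3p: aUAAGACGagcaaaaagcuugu
mmu-miR-208b-3p: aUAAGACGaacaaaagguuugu
mmu-miR-499-5p: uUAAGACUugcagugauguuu
The miR-208 pair share 1 seed (UAAGACG), and that of miR-499-5p (UAAGACU) differs from it only at base 8. Poly(A) libraries do not measure mature microRNAs, and Mir208a, Mir208b and Mir499 were listed at 0 in all 8 mice, also in the 3 mice in which the host gene Myh6 was above 1000.

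Across the family, 0 of 8 genes had an unadjusted limma p under 0.05, against 3.36% of the 11865 genes tested. At an unadjusted p under 0.05 with at least 1.5-fold, limma called 0 of 8 members, against 0.219% of all genes (26 genes). The study used the same limits with edgeR and reported many more SOL genes, so 26 does not stand for its count. On the recovered reads edgeR called 65 genes at these limits. A Benjamini-Hochberg adjusted p under 0.05 was reached by 0 of 8 members and 0% of all genes with limma, where 399 genes had an unadjusted p under 0.05, and edgeR and DESeq2 on recovered reads also called 0 genes at that adjusted level. MI4KO and flox values overlapped for all 8 members, while 2.07% of all genes had groups that did not overlap. With 8 members, a count of 0 is what each of these background shares would give. The fold changes were negative for 4 members (Myh7, Myh2, Myh3 and Myh7b) and positive for 4 (Myh1, Myh4, Myh8 and Myh6). A p that misses the limit does not show equal levels, and the intervals differ greatly in what they allow. For Myh7 and Myh2 the interval ends within 0.42 of zero on the log2 scale, whereas for Myh4 and Myh6 it admits changes of several-fold either way.

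**Figure D4:**
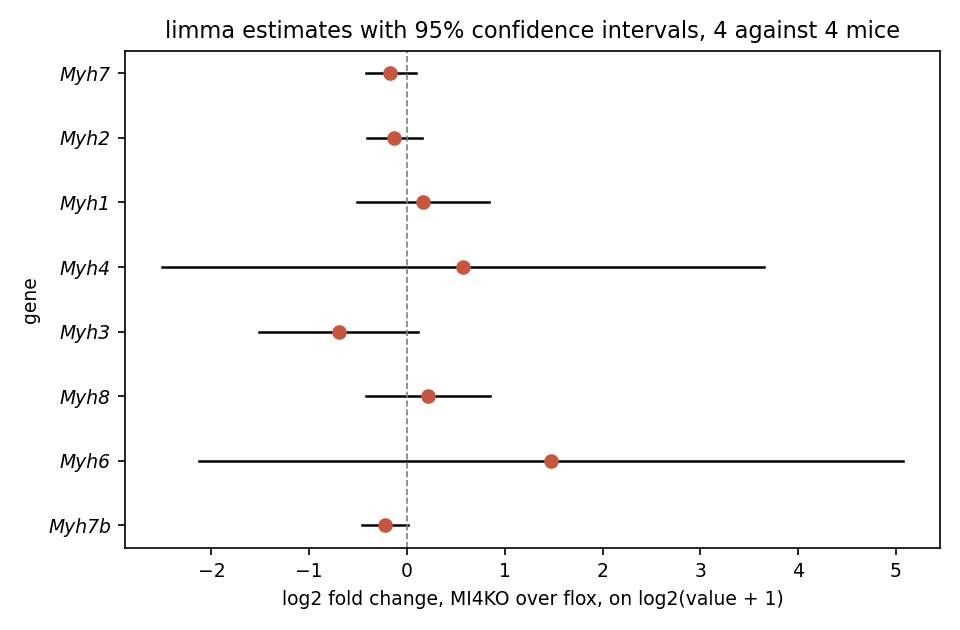
limma log2 fold change of each member (MI4KO over flox, on log2(value + 1)) with its 95% confidence interval, 4 mice against 4. Every interval includes 0, those of Myh7, Myh2 and Myh7b are narrow, and those of Myh4 (-2.50 to 3.65) and Myh6 (-2.13 to 5.07) are wide.

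**Figure D5:**
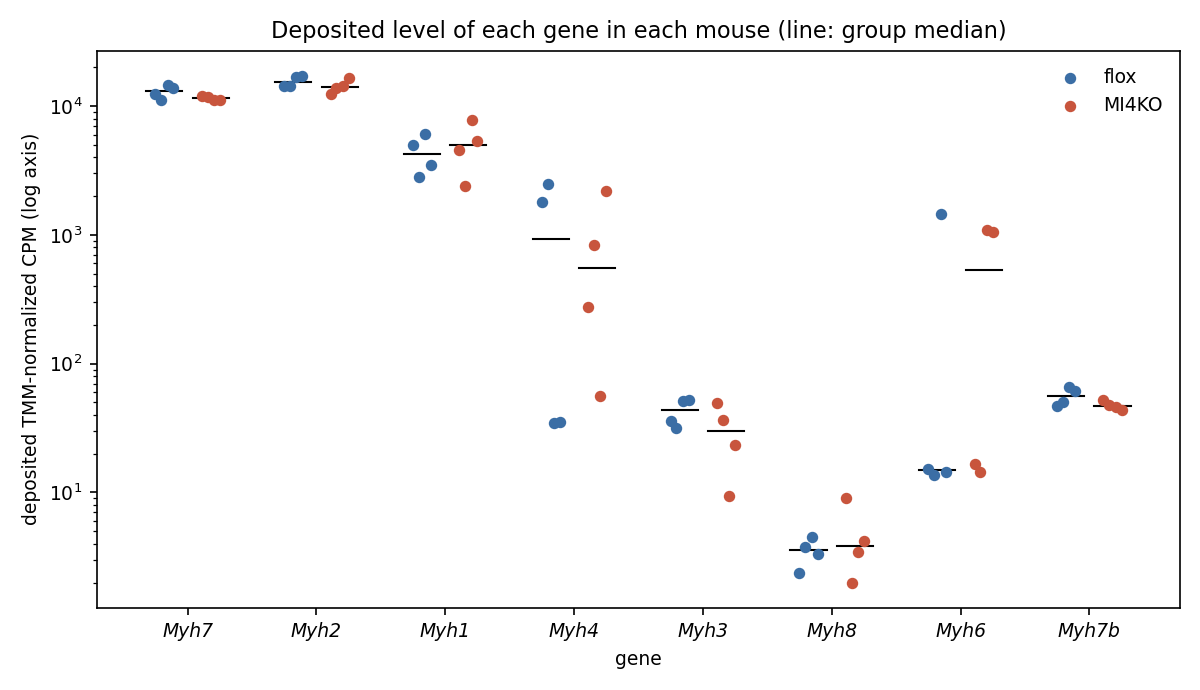
Deposited value of each gene in each mouse (TMM-normalized CPM, logarithmic axis), with flox and MI4KO mice side by side and a line at each group's median. Groups overlap for every gene, and Myh4 and Myh6 spread over 72.3-fold and 107-fold.

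The label numbers of the mice fall into a lower range, with 1 flox (mouse 1) and 2 MI4KO mice (mice 1 and 2), and a higher range, with 3 flox and 2 MI4KO mice. The labels do not say what the ranges stand for. Within the lower and the higher range, the difference in mean log2 value (MI4KO minus flox) was -0.05 and -0.24 for Myh7 and -0.12 and -0.05 for Myh2, so both kept a negative sign in each range. It changed sign between the ranges for Myh1 (-0.58 and 0.73), Myh4 (-1.91 and 1.25), Myh3 (0.23 and -1.50), Myh8 (0.71 and -0.01) and Myh7b (0.09 and -0.38). For Myh6 it was 0.03 and 3.95. The difference in mean share per kilobase changed sign for Myh7 (3.9 and -6.48 percentage points) and Myh2 (2.45 and -2.68). The lower range has only 1 flox mouse, so these are values without a test.

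Adult isoforms can replace one another in a fiber, so the 6 pairs among Myh7, Myh2, Myh1 and Myh4 were compared over the 8 mice on the log2(value + 1) scale. The strongest relation was between Myh7 and Myh4 (r = -0.64, exact permutation p = 0.0931, and rho = -0.55, exact permutation p = 0.171), and it became r = 0.14 without the 2 mice farthest from the median Myh7, so it rested on those mice. Myh7 and Myh2 had r = 0.50 (exact permutation p = 0.211), and r = -0.57 without the 2 farthest mice. On deviations from the group means, given with no test, r was -0.72 for Myh7 and Myh4 and 0.34 for Myh7 and Myh2, and the 4 mice of a group were too few for a correlation within it. Over the 6 pairs no Benjamini-Hochberg adjusted p of these exact tests was below 0.535. No relation between adult isoforms could therefore be told from the spread of 8 mice. By the same measure, described with no test, the genes most like Myh7 were Hdac6 (r = 0.966), Lrrfip1 (0.943) and Usp20 (0.936), those most like Myh2 were Crtc3 (0.979), Ccar2 (0.973) and Zfp59 (0.967), and those most like Myh1 were Rbm12 (0.981), Mphosph6 (0.976) and Zfp143 (0.975). For Myh8 they were Bzw1 (0.957), 6330408A02Rik (0.943) and Mcph1 (0.937), and for Myh7b Ppap2a (0.956), Lsm11 (0.954) and Pigt (0.949). Apart from Rbm12 (2.04-fold), the highest and lowest mice differed by 1.2- to 1.54-fold in these genes.

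Genes that share the contractile programmes of the myosins were read from lists of known members. Of 12 slow-fiber genes, which include the slow troponins Tnnt1, Tnni1 and Tnnc1 and the slow light chains Myl2 and Myl3, 0 had an unadjusted p under 0.05 (3.36% of all genes did), and 11 of 12 had a negative log2 fold change, with a median of -0.07 against -0.01 for all genes tested. Over the mice, 11 of these 12 genes had r above 0 with Myh7, the highest being Ankrd2 (r = 0.84), and 11 had r under 0 with Myh4. Of 12 fast-fiber genes, 8 likewise had r under 0 with Myh4, while 4 had r above 0 with Myh7 and 7 under 0. These signs were not counted over all genes, and all values share library scaling. The 12 fast-fiber genes had a median log2 fold change of 0.03, 7 of them positive and 5 negative. Only 4 of the 12 had r above 0 with Myh4: Actn3 (0.98), the calcium buffer Pvalb (0.75), the fast myosin-binding protein Mybpc2 (0.69) and Gpd1 (0.04). The fast calcium pump Atp2a1 and the fast troponin Tnnt3 instead went with Myh1 (r = 0.88 and 0.82). Pvalb was at 261, 267, 124 and 60.9 in flox mice 1 to 4 and at 143, 154, 209 and 259.7 in MI4KO mice 1 to 4, and it was lowest in flox mouse 4, as was Actn3.

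Among the partners of the heavy chains, Myl1, the fast essential light chain and the gene that holds the Cre allele, had values of 3151, 3664, 3510 and 3262 in flox mice 1 to 4 and of 2447, 2203, 2736 and 2846 in MI4KO mice 1 to 4. All MI4KO mice were below all flox mice, with an exact two-sided permutation p of 0.0286, the smallest the design allows. Its limma log2 fold change was -0.41 (SE 0.10, unadjusted p = 0.00135, Benjamini-Hochberg adjusted p = 1.0), which is under 1.5-fold and does not pass the adjusted test. The Cre allele and the loss of Irf4 cannot be told apart for Myl1, since they go together in these mice. Of the 9 light chain and light chain kinase genes tested, Myl1 was the only one with an unadjusted p under 0.05, against 3.36% of all genes, and the only one whose groups did not overlap, against 2.07%. Other light chains overlapped between groups, with log2 fold changes of -0.06 for Myl2, -0.04 for Myl3 and -0.10 for Mylpf. Of 8 thick-filament and M-band genes tested and 9 genes of myosin folding and turnover, 0 had an unadjusted p under 0.05, which is near the share of 3.36% over all genes. Median log2 fold changes were -0.02 for both lists, against -0.01 for all genes, and the myosin chaperone Unc45b was at 207 to 236 in flox mice and 191 to 267 in MI4KO mice.

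Known regulators of fiber type overlapped between the groups in all 29 genes listed, where 2.07% of all genes did not overlap. Of these, 1 had an unadjusted limma p under 0.05, a share near the 3.36% of all genes, and this was the calcineurin target Nfatc2 (log2 fold change -0.56, SE 0.25, unadjusted p = 0.0431, Benjamini-Hochberg adjusted p = 1.0). Nfatc2 was at 38.2, 36.6, 49.7 and 37.9 in flox mice 1 to 4 and at 30.9, 30.9, 13.6 and 40.9 in MI4KO mice 1 to 4, and its groups overlapped (exact two-sided permutation p = 0.114). The median log2 fold change of the 29 was -0.01, with 13 positive and 16 negative. Non-members of the myosin heavy chain family, namely Myh9, Myh10 and Myh14 of non-muscle cells, Myh11 of smooth muscle and Myh13, had negative estimates in 5 of 5 genes tested (median -0.22), and 0 of 5 had an unadjusted p under 0.05, against 3.36% of all genes. The 5 smooth muscle markers, which include Myh11 again, had negative estimates in 5 of 5, with a median of -0.22. All 5 were lowest in MI4KO mouse 1, with Myh11 at 26.1 and Acta2 at 37.7 there. The summed value of the 5 markers was 247 to 282 in flox mice and 178 to 302 in MI4KO mice.

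IRF4 binds DNA at interferon-stimulated response elements (ISRE) and, with ETS partners, at composite elements (EICE), so the members' RefSeq promoters on GRCm38.p6, 250 bases before to 50 after each start, were searched for these letters. All 8 members had a promoter entry, Myh7 with 2 start sites. ISRE letters (GAAA, 2 bases of any kind, GAAA) and EICE letters (GGAA, 2 bases of any kind, GAAA) were searched on both strands and found in 0 of 8 members, against 3.44% and 2.72% of the 32851 promoters searched, and the MEF2 core (CTA, 4 bases of any kind, TAG, both strands) was also found in 0 of 8, against 3.69%. No match says only that these letters are not in this window. Other forms of these sites, such as MEF2 sites that begin with TTA, were not searched. The letters TATAAA on the given strand, held by 8.32% of all promoters, occurred in 5 of 8 members. In Myh2 and Myh6 they began after the annotated start, at bases 11 and 2 counted from it. They began 32, 31 and 29 bases before the start of Myh1, Myh4 and Myh3, 3 genes of the chromosome 11 cluster. Myh4 also held them 213 bases before its start, outside the stretch shown. The median levels per kilobase of Myh1, Myh4 and Myh3 were 786, 92.2 and 6.00. In flox mice 3 and 4 the Myh4 values (34.5 and 35.4) were below those of Myh3 (50.9 and 52.2). The 60 bases before each start are shown with the letters TATAAA in capitals (plus strand, chr11:67200042-67200101, chr11:67237752-67237811 and chr11:67078240-67078299).
Myh1: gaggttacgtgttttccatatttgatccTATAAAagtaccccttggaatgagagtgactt
Myh4: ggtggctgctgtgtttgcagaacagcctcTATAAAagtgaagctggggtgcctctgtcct
Myh3: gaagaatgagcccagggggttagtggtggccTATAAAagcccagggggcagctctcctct
Those of Myh7, Myh8 and Myh7b did not hold TATAAA in the window.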

How the data were processed

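SOL RNA of 4 MI4KO and 4 flox mice was read from 1 table. Per the labels and the methods of the study, the authors made libraries with a stranded poly(A) kit, sequenced single reads of 50 bases (bcl2fastq 2.17), mapped them to UCSC transcripts with Bowtie2 2.1.0, estimated expression with RSEM 1.2.15 and scaled it by TMM. The submitters' processing notes name the build mm10. The deposited signal, TMM-normalized CPM per gene and mouse, gave whole reads for 100% of its values above 0 (tolerance 0.1 read). The table also holds the authors' own fold change, p-value and FDR from edgeR, which were not used. Of the 24054 genes, 6086 had no read in any mouse.

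Groups were compared with limma 3.58.1 (R 4.3.3) on log2(value + 1), with a trend of variance on mean, over the 11865 genes at 1 or more in 4 or more mice, adjusted by Benjamini-Hochberg. Fold changes on this scale understate changes of low genes. Single values were compared by exact two-sided permutation tests (scipy 1.17.1), and shares were computed per kilobase of the longest transcript in GENCODE M21 (GRCm38), which need not be the authors' transcript set. Alternatives were another pseudocount (0.1), no filter, 2 other scalings, limma without trend or robust, a covariate for the range of mouse numbers, edgeR 4.0.16 and DESeq2 1.42.0 on the recovered reads, other lengths for the shares, and each mouse left out. The comparison was tested on simulated data. Recovered totals were 13417512 to 16384565 reads, and floors of 3 reads reflect counting error alone, because no molecular identifiers were used. No 2 mice were taken for the same library, the smallest chi-square per degree of freedom between a pair being 6.06. Each sample is 1 mouse. The 8 members and the lists were chosen with earlier results of these data known. Genes named are the members, the genes of the lists and, for each member, the 3 genes with the highest r over the 8 mice, compared over 11857 genes.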

Additional observations from a re-analysis of the deposited data

Results flagged for a closer look

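Over 40 groups of 4 mice (log2 levels and shares of the 8 members, and log2 levels of Actn3, Myl1, Pvalb and Mybpc2), the gap from the highest or lowest mouse to its nearest neighbor exceeded Dixon's 95% limit in 2, and chance alone gives about 1 in 20. Both concern Myh6 in flox mouse 3, which had a value of 1451 when the other flox mice were at 13.6 to 15.2 (a gap of 0.977 of the range of log2 values), and a share of 3.73% of the family per kilobase when the lowest share in flox mice was 0.0420% (a gap of 0.999 of the range). MI4KO mice 3 and 4, at 1089 and 1045, had values of the same size, so the mouse stood apart from its group and not from all mice.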

How the results depend on the processing

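No paired analysis was possible because the labels give no replicate numbers that the groups share. All 8 members kept an adjusted p above 0.05 in each of 17 alternatives. Unadjusted p fell under 0.05 in 2 alternatives for Myh3 (0.0214 with a covariate for the range of mouse numbers, log2 fold change -0.88, and 0.0112 without MI4KO mouse 1), in 4 for Myh7b (0.0141 to 0.0458) and in 1 for Myh6 (0.0445 without flox mouse 3). For Myh7, Myh2, Myh3, Myh6 and Myh7b the sign of the log2 fold change held in all 17. It turned for Myh4 with edgeR (-0.37) and DESeq2 (-0.38). Over the fits that leave out 1 mouse, it ranged from -0.41 to 1.63 for Myh4, from -0.09 to 0.48 for Myh1 and from -0.11 to 0.47 for Myh8. Differences in level (MI4KO minus flox) ranged from -204 to 1602 for Myh1, from -705 to 209 for Myh4, from -0.282 to 2.07 for Myh8 and from -14.9 to 527 for Myh6. Differences in share ranged from -3.12 to 0.327 percentage points for Myh7, from -2.22 to 0.34 for Myh2, from -2.14 to 0.633 for Myh4 and from -0.000643 to 0.00731 for Myh8. Over all genes, the count at an unadjusted p under 0.05 with at least 1.5-fold was 26, and it was 71 with a pseudocount of 0.1, 13 with robust limma, 65 with edgeR, 51 with DESeq2 and 19 to 58 when 1 mouse was left out, with 58 without MI4KO mouse 4. The count at an adjusted p under 0.05 was 0, and 0 to 1 when 1 mouse was left out, with 1 without MI4KO mouse 2. Causes of these shifts were not tested. The fewest reads stood behind Irf4 (4 to 23 per mouse) and Myh8 (31 to 125 per mouse).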
